A study of Homo sapiens with 6 samples.

Results

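The 48 genes described here encode the machinery that licenses, starts and carries out DNA replication, with the regulators that bring a cell from G1 into S phase. They were listed by name, with earlier results of these data known. All 48 were found among the 34500 annotated genes matched in the libraries, and all 48 passed the filter on low values that left 11857 genes for the test. RNA had been sequenced from RPMI 8226, an established human multiple myeloma cell line, after lentiviral transduction with a short hairpin RNA. The control group, shLuc, carried a hairpin against luciferase, a gene that human cells lack. The other group, shHDAC1, carried a hairpin against HDAC1, a histone deacetylase of class I. There were 3 libraries per group, which the labels describe as triplicate transductions, and all cells had been selected with puromycin for 48 h and grown with 10% serum. The labels give 1 hairpin name per group and do not say whether the cells were synchronized, and the share of cells in each phase was not analysed here. Values are in TPM, a share of 1000000 transcripts in each library corrected for transcript length, and every list of values below follows replicates 1, 2 and 3.

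Replication origins are prepared in G1, when the origin recognition complex, CDC6 and CDT1 load the MCM2-7 helicase onto DNA, and geminin later blocks CDT1 so that no origin is loaded again. Entry into S phase turns loaded helicases into active ones by adding CDC45 and the GINS complex. DNA polymerase alpha with primase then starts each strand, polymerases epsilon and delta extend it on the PCNA clamp, which replication factor C loads, and FEN1 and LIG1 finish the lagging strand. Most of these genes are targets of the E2F transcription factors, which are released when cyclin-dependent kinases, cyclin E with its kinase among them, phosphorylate the retinoblastoma protein. HDAC1 is known as a partner of the retinoblastoma protein at E2F target genes. A dividing myeloma line transcribes the whole set.

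HDAC1 itself stood at 89.98, 85.0 and 88.9 TPM with shLuc and at 31.8, 27.0 and 29.2 TPM with shHDAC1, so 33.3% was left (log2 fold change -1.56 ± 0.08 SE, adjusted p = 2.2e-06, limma). The libraries listed 173259 transcripts each and summed to the same total, so their depth in reads is unknown and no counting error can be given. Between 11629 and 11992 genes reached 1 TPM per library, more with shHDAC1 than with shLuc in every library. Pairs of libraries correlated across genes at 0.993 to 0.995 within groups and at 0.982 to 0.985 between groups. Of 8 plasma cell markers, 7 were at 1 TPM or more in all 6 libraries and SLAMF7 was below 1 TPM. Their summed level was 2337 to 2410 TPM with shLuc and 1581 to 1648 TPM with shHDAC1. The sum of 4 T cell markers, of which CD3D and CD2 were listed at 0, lay at 1.97 to 2.32 TPM with shLuc and 3.16 to 3.89 TPM with shHDAC1. That of 4 myeloid markers, with MPO listed at 0, lay at 2.36 to 2.73 TPM and 5.92 to 8.47 TPM, and that of 4 fibroblast markers at 0.408 to 1.70 TPM and 0.701 to 2.34 TPM. Most of the T cell sum was CD8A, with means of 2.09 TPM (shLuc) and 3.28 TPM (shHDAC1). Most of the myeloid sum was ITGAM, at 2.26 and 6.42 TPM, and the other T cell and myeloid markers stayed below 1 TPM. MZB1 made most of the plasma cell sum (1487 and 1033.5 TPM), and each plasma cell marker but SLAMF7 was called lower. The plasma cell, T cell and myeloid sums did not overlap between the groups while the fibroblast sum did, and their part in the results below was not tested.

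Replication genes changed in both directions after HDAC1 knockdown, and the changes were small. Of the 48, 13 were called lower and 5 higher, while 30 were not called. Among all genes tested, 27.2% were called, 10.3% lower and 16.9% higher. The shares among the replication genes were 27.1% lower and 10.4% higher, above the background downward and below it upward; no test of that difference was made, since the genes were chosen with results known. Their median log2 fold change was -0.04, beside 0.07 for all genes tested, with 28 values below 0 and 20 above it. The groups did not overlap for 22 of the 48 (45.8%), against 43.3% of all genes tested. In bulk RNA, fewer cells in a phase and less RNA per cell cannot be told apart.

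Lower calls outnumbered higher ones under each scaling tried, while the number of higher calls changed with it. With libraries centred on their median gene, 14 replication genes were called lower and 1 higher, and with quantile normalization 12 and 2. The share of higher calls among all called genes moved from 62.2% to 42.2% and 47.0% under these scalings. Without 1 library the count of lower calls was 7 to 11 and that of higher calls 1 to 4. It was 7 lower and 2 higher without shLuc replicate 2, 8 and 4 without shLuc replicate 3, 8 and 3 without shHDAC1 replicate 3, and 9 and 1 without shLuc replicate 1. Without shHDAC1 replicate 1 it was 11 and 2, and without shHDAC1 replicate 2 it was 9 and 3. CDC6, MCM6, GINS2, POLD2, E2F2 and CCNE2 were called lower under every one of the 15 alternatives run, which were 9 other settings and 6 left-out libraries. POLA2 and RRM2 lost the call in 1 alternative, and the other 10 called genes in 4 to 9.

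**Figure D1:**
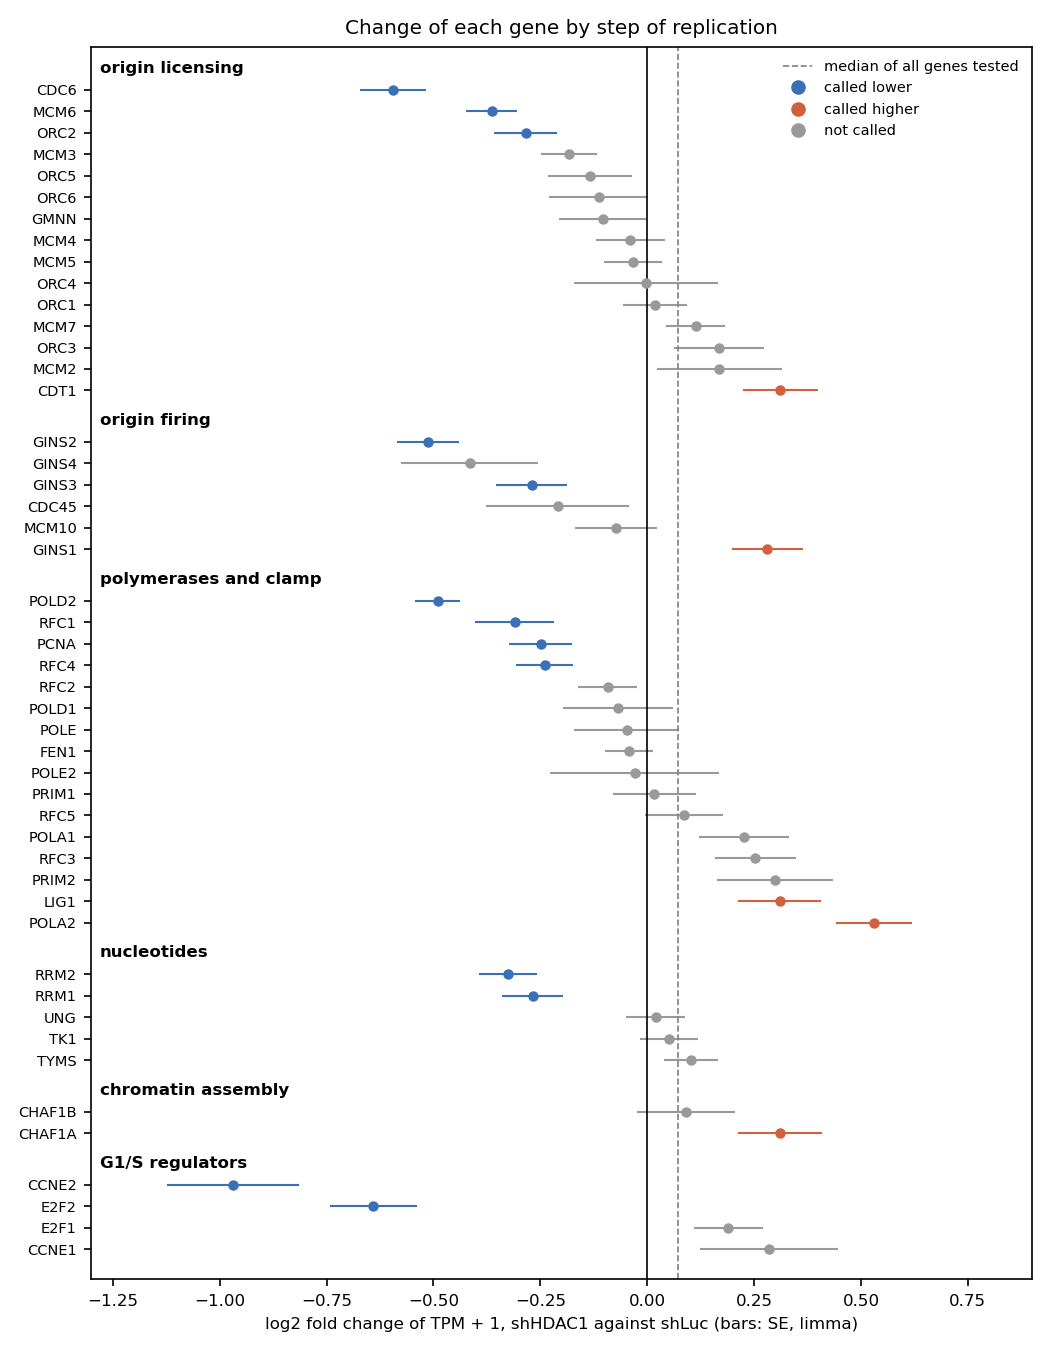
Log2 fold change of TPM + 1 between shHDAC1 and shLuc (horizontal axis) for each of the 48 genes, grouped by step, with points at the fitted value, bars for the SE, and colour for the call. Licensing, firing and the polymerases hold both blue points (called lower) and red points (called higher), the nucleotide genes and G1/S regulators hold only blue among those called and chromatin assembly only red, and the dashed line marks the median of all genes tested, 0.07.

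Levels in the control libraries ranged over 64.8-fold. The lowest was CHAF1B at 7.73 ± 0.55 TPM and the highest POLD2 at 501 ± 17.4 TPM (SD, n = 3). The median over the 48 genes was 63.3 TPM, against 19.4 TPM over all genes tested. PCNA at 473 ± 33.6 TPM and RRM2 at 385 ± 10.0 TPM followed POLD2, and POLD2 and PCNA overlapped between libraries. At the lower end, CCNE1 at 8.44 ± 1.62 TPM did not differ from CHAF1B beyond their spread. All 48 genes together held 5310 ± 82.7 TPM with shLuc and 4899 ± 138 TPM with shHDAC1, which is 92.3% of the control level. The 3 most abundant genes were all called lower, so the sum fell further than the median gene did.

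**Figure D2:**
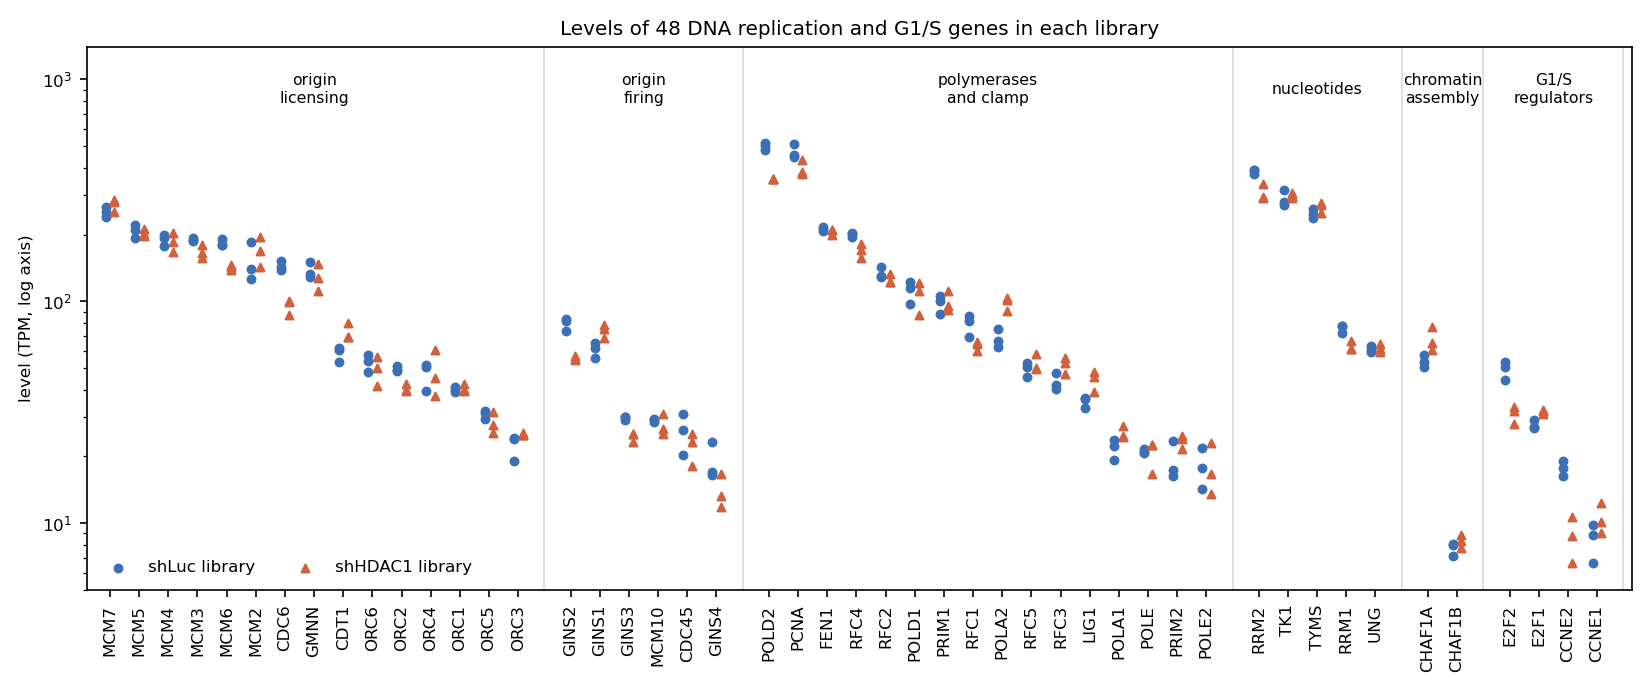
Level of each of the 48 genes in TPM (vertical log axis) in each library, ordered by step and by level, with circles for the 3 shLuc libraries and triangles for the 3 shHDAC1 libraries. Triangles sit below circles for CDC6, MCM6, GINS2, POLD2, RRM2, E2F2 and CCNE2 and above them for POLA2, and the marks of most other genes intermingle or nearly touch.

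Promoter sequence was examined because both lower and higher genes are classed among E2F targets. RefSeq promoters on GRCh38.p14, which run from 250 bases before to 50 bases after the annotated start, were found for 44 of the 48 genes. They were searched on both strands for TTTCGCGC, TTTGGCGC, TTTCCCGC and TTTGCCGC, 4 forms of the E2F site of 8 letters each. Any form was present in 22 of 44 replication promoters (50%), against 3.32% of 35116 promoters and 7.04% of the 8846 tested genes with a promoter. It was present in 6 of 12 promoters of genes called lower, in 4 of 5 of genes called higher, and in 12 of 27 of genes not called. Among all 623 tested genes with the letters, 9.31% were called lower and 16.1% higher, which is near the share over all genes. The letters therefore occurred in genes of either direction. The windows below show them in capitals for genes that fell (CDC6, MCM6, GINS2 and E2F2) and genes that rose (CDT1, GINS1 and POLA2), 5′ to 3′ on the gene's strand with 10 bases on either side.
CDC6, chr17:40287876-40287903, plus strand: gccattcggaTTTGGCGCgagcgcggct
MCM6, chr2:135876512-135876605, minus strand: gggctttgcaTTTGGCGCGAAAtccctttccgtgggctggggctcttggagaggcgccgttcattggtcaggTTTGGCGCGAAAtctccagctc
GINS2, chr16:85688968-85688995, minus strand: tctcgccgtgGCGGGAAAacggcggccg
E2F2, chr1:23531258-23531285, minus strand: cggcacgacgTTTGGCGCtaaaaaaaaa
CDT1, chr16:88803744-88803771, plus strand: cagggcgcccGCGGGAAAtttggcggga
GINS1, chr20:25407668-25407695, plus strand: gctttgttcgGCGCCAAAgcgcggagcg
POLA2, chr11:65261899-65261926, plus strand: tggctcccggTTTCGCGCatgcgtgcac
MCM6 carried 4 matches, in 2 blocks where forms on the 2 strands overlap each other. The same TTTGGCGC stood in CDC6, MCM6 and E2F2, which fell, and on the opposite strand as GCGCCAAA in GINS1, which rose. The higher calls are less firm: GINS1 lost its call in 8 of 15 alternatives, CDT1 in 4 and POLA2 in 1. CCAAT, the box bound by NF-Y, was present for 26 of the 44 replication genes against 43.8% of tested genes. It was present for 9 of 12 genes called lower, 2 of 5 called higher and 15 of 27 not called. Among all 3875 tested genes with CCAAT, 11.3% were called lower and 16.4% higher. The difference by direction was not tested. The cell cycle homology letters TTTGAA or TTCGAA, known from genes expressed later in the cycle, were present for 3 of the 44 genes against 15.4%.

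Origin licensing was carried by 15 genes, of which 3 were called lower, 1 higher and 11 not called, with a median log2 fold change of -0.04. The share called was 26.7%, near the 27.2% of all genes tested. It was 50% for firing, 37.5% for polymerases and clamp, and 40% for nucleotides. Chromatin assembly and the G1/S regulators, with 2 and 4 genes, had 50% each. CDC6, the ATPase that joins the origin recognition complex to load the helicase (ENSG00000094804, GRCh38 chr17:40287633-40304657), stood at 153, 138 and 143 TPM with shLuc. Its shHDAC1 libraries stood at 100.4, 99.8 and 86.6 TPM. Every shHDAC1 library lay below every shLuc library, at 66.1% of the control mean (log2 fold change -0.60 ± 0.08 SE, adjusted p = 6.5e-04). CDT1, the loading partner of CDC6, went the other way, from 53.2, 61.5 and 60.2 TPM to 69.3, 68.8 and 79.6 TPM (0.31 ± 0.09, adjusted p = 0.029). The groups of CDT1 did not overlap either, but the change did not pass the test when shLuc replicate 1 (adjusted p = 0.109) or shHDAC1 replicate 3 (0.0968) was left out, with median centring (0.106) or with no filter (0.0768). The ratio of CDT1 to CDC6 was 0.348, 0.445 and 0.421 with shLuc and 0.690, 0.690 and 0.918 with shHDAC1. Geminin, the CDT1 inhibitor encoded by GMNN, stood at 129, 151 and 133 TPM and at 127, 147 and 112 TPM, with groups that overlapped (-0.10 ± 0.10, adjusted p = 0.48).

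The MCM2-7 helicase has 6 different subunits that assemble in equal number, and 1 of the 6 was called. MCM6 (ENSG00000076003, chr2:135839626-135876426) stood at 179, 191 and 180.0 TPM with shLuc and at 145, 138 and 143.5 TPM with shHDAC1. Its groups were well apart, with 77.6% of the control mean left (-0.36 ± 0.06, adjusted p = 0.0021). MCM3 came next, at 192, 188 and 189 TPM against 179, 156 and 166 TPM, and its groups did not overlap. It missed the threshold (-0.18 ± 0.07, adjusted p = 0.067), and passed it without shHDAC1 replicate 1 (0.040), with median centring (0.0107) and with protein-coding transcripts only (0.035). The other four overlapped between groups. MCM2 gave 140.4, 127 and 184 TPM and then 195, 142 and 168 TPM, the widest spread of the complex. MCM7 gave 251.5, 239.5 and 267 TPM and then 287, 253 and 281 TPM. The log2 fold changes of MCM2, MCM4, MCM5 and MCM7 were 0.17, -0.04, -0.03 and 0.11, with adjusted p between 0.25 and 0.75. The sign for MCM4 turned to 0.03 without shHDAC1 replicate 3, and that for MCM5 to 0.01 without shLuc replicate 3. The summed level of the complex was 1174 ± 52.1 TPM with shLuc and 1140 ± 68.1 TPM with shHDAC1, a difference within the spread.

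The origin recognition complex marks origins, and its 6 subunits lay between 22.4 TPM for ORC3 and 53.1 TPM for ORC6 in the controls. ORC2, a core subunit, stood at 48.3, 51.1 and 49.3 TPM with shLuc and at 42.6, 39.7 and 39.3 TPM with shHDAC1. It was the only subunit called (-0.28 ± 0.07, adjusted p = 0.020), and its groups did not overlap. The call was lost without shLuc replicate 1, 2 or 3 (adjusted p = 0.0527, 0.060 and 0.0524), without shHDAC1 replicate 3 (0.0688), and with protein-coding transcripts only (0.482). The other 5 subunits had adjusted p between 0.27 and 0.99. As a sum the complex stood at 243 ± 6.32 TPM and 232 ± 7.89 TPM.

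Origin firing was represented by 6 genes, with 2 called lower, 1 higher and a median log2 fold change of -0.24. GINS is a ring of 4 proteins that joins CDC45 and MCM2-7 in the active helicase, and its subunits diverged. GINS2 (ENSG00000131153, chr16:85676198-85690073) stood at 73.4, 82.9 and 81.8 TPM with shLuc and at 54.4, 56.5 and 54.8 TPM with shHDAC1. All shHDAC1 values lay below all shLuc values, at 69.6% of the control mean (-0.51 ± 0.07, adjusted p = 0.0011). GINS1 moved in the opposite direction, from 55.8, 61.6 and 64.8 TPM to 74.8, 78.4 and 68.7 TPM (0.28 ± 0.08, adjusted p = 0.035). Its groups were apart, yet the call was lost when shLuc replicate 1 (adjusted p = 0.128) or 2 (0.0683) or shHDAC1 replicate 1 (0.0919) or 2 (0.0846) was left out, with either other scaling (0.123 and 0.0618), with no filter (0.0779) and with protein-coding transcripts only (0.0966). Summed over all transcripts, GINS2 was the more abundant of the pair in every shLuc library and GINS1 in every shHDAC1 library. Only 52.1% of GINS1 TPM lay in protein-coding transcripts, against 100% for GINS2. The most abundant GINS1 transcript, the coding ENST00000262460, gave 38.3, 40.1 and 35.6 TPM with shHDAC1, below GINS2 in every library. A non-coding transcript, ENST00000484893, gave 35.2, 37.4 and 33.1 TPM with shHDAC1. The ratio of GINS1 to GINS2 was 0.761, 0.743 and 0.792 and then 1.37, 1.39 and 1.25. These ratios, like the others given here, were chosen after the values were seen and carry no test.

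GINS3 stood at 30.2, 30.2 and 29.2 TPM with shLuc and at 25.3, 23.2 and 25.4 TPM with shHDAC1 (-0.27 ± 0.08, adjusted p = 0.038). Its call was lost without any 1 of the 6 libraries, with adjusted p of 0.113, 0.0915 and 0.0751 without shLuc replicates 1, 2 and 3 and of 0.0726, 0.0902 and 0.0707 without shHDAC1 replicates 1, 2 and 3. GINS4 gave 23.3, 17.1 and 16.5 TPM and then 11.8, 13.3 and 16.7 TPM, so the highest shHDAC1 library overlapped the lowest shLuc library. It missed the threshold (-0.42 ± 0.16, adjusted p = 0.085) and passed it without shHDAC1 replicate 3 (adjusted p = 0.0422). The 4 subunits together came to 183, 192 and 192 TPM with shLuc and to 166, 171 and 166 TPM with shHDAC1. CDC45 and MCM10, which act at the same step, were not called (adjusted p = 0.39 and 0.61).

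**Figure D3:**
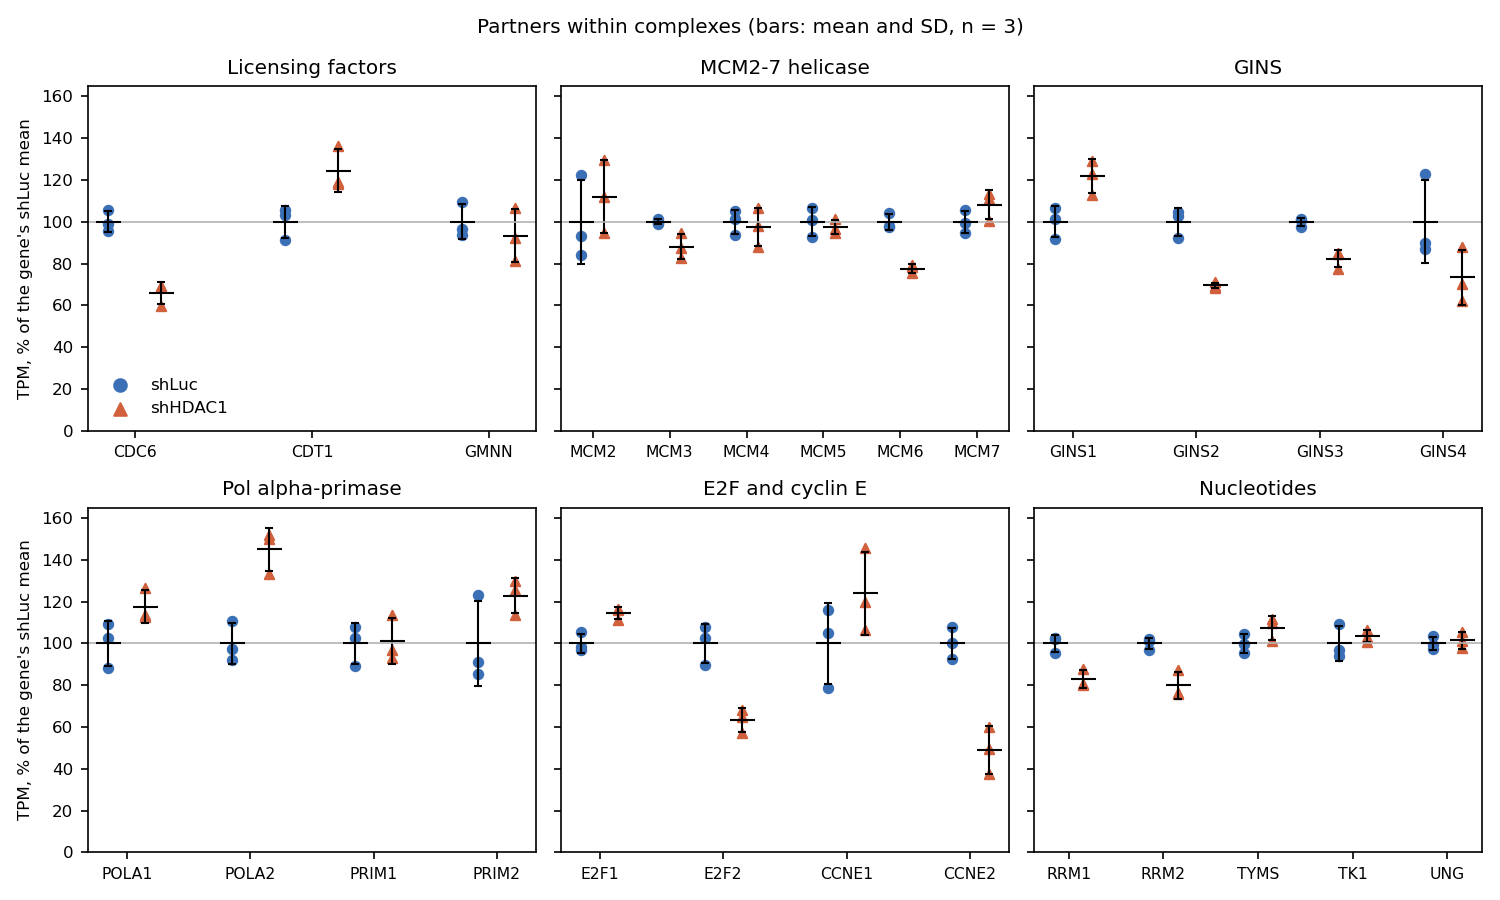
Level of each gene as a percent of its own shLuc mean (vertical axis) in 6 groups of partners, with circles for shLuc libraries, triangles for shHDAC1 libraries, and bars for the mean and SD of 3 libraries. Within panels the triangles part company, as for CDC6 at 66.1% and CDT1 at 124%, GINS2 at 69.6% and GINS1 at 122%, or CCNE2 at 49.0% and CCNE1 at 124%. CCNE1 was not called and its groups overlapped. CDT1 and GINS1 lost their call in 4 and 8 of 15 alternatives. The pairs were picked after the values were seen.

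Polymerases, the clamp and its loader made the largest group, 16 genes with 4 called lower, 2 higher and a median log2 fold change of -0.04. POLD2, the second subunit of polymerase delta (ENSG00000106628, chr7:44114681-44124358), was the most abundant gene of the 48. It stood at 517, 482 and 504 TPM with shLuc and at 355, 357 and 357 TPM with shHDAC1. The shHDAC1 libraries were close to each other (SD 1.29 TPM) and lay at 71.1% of the control mean (-0.49 ± 0.05, adjusted p = 2.1e-04). The catalytic subunit of the same enzyme, POLD1, was not called (-0.07 ± 0.13, adjusted p = 0.73), nor were POLE and POLE2 of polymerase epsilon (adjusted p = 0.80 and 0.93).

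DNA polymerase alpha and primase work as a complex of 4 proteins, and 1 of the 4 was called. POLA2, the accessory subunit of polymerase alpha (ENSG00000014138, chr11:65261762-65305589), rose from 62.35, 75.1 and 66.0 TPM to 103, 102 and 90.2 TPM (0.53 ± 0.09, adjusted p = 0.0025). It was the highest fold change of the 48, at 1.45-fold, and its groups were well apart, but the call was lost with protein-coding transcripts only (adjusted p = 0.16). PRIM2, the large primase subunit, gave 16.3, 17.4 and 23.5 TPM and then 24.7, 23.9 and 21.6 TPM, with shLuc replicate 3 inside the range of the shHDAC1 libraries. It was not called (0.30 ± 0.14, adjusted p = 0.13), and was called without shLuc replicate 3 (adjusted p = 0.0224) and with protein-coding transcripts only (0.0043). The catalytic subunits POLA1 and PRIM1 had log2 fold changes of 0.23 ± 0.10 and 0.02 ± 0.10 and were not called (adjusted p = 0.14 and 0.92). Summed over the complex, the level was 207 ± 19.1 TPM with shLuc and 247 ± 17.4 TPM with shHDAC1, and the libraries of the groups did not overlap.

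PCNA, the sliding clamp that tethers the polymerases, stood at 459, 511 and 448 TPM with shLuc and at 383.5, 433 and 376 TPM with shHDAC1 (-0.25 ± 0.07, adjusted p = 0.035). The gap between the groups was narrow, since shHDAC1 replicate 2 lay just below shLuc replicate 3. The PCNA call was lost when shLuc replicate 1 (adjusted p = 0.0715) or 2 (0.108) or shHDAC1 replicate 1 (0.0954) or 3 (0.108) was left out, with quantile normalization (0.132) and with no filter (0.111).

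Of the 5 subunits of the clamp loader, 2 were called lower. RFC1, the large subunit, stood at 69.0, 81.55 and 86.1 TPM and then at 65.4, 60.0 and 64.2 TPM (-0.31 ± 0.09, adjusted p = 0.034). RFC4, a small subunit, stood at 194, 202 and 204 TPM and then at 181, 157 and 171 TPM (-0.24 ± 0.07, adjusted p = 0.028). Both had groups that did not overlap, and both lost the call in several alternatives. For RFC1 adjusted p was 0.0971 and 0.106 without shLuc replicates 2 and 3, 0.0606, 0.0771 and 0.066 without shHDAC1 replicates 1, 2 and 3, 0.0943 with no filter and 0.119 with protein-coding transcripts only. For RFC4 it was 0.0601, 0.070 and 0.0781 without shLuc replicates 1, 2 and 3, 0.0651 and 0.0634 without shHDAC1 replicates 2 and 3, and 0.0607 with no filter. RFC2, RFC3 and RFC5 were not called (adjusted p = 0.35, 0.078 and 0.53). The complex as a sum gave 506 ± 19.3 TPM and 463 ± 14.2 TPM.

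LIG1, the ligase that seals Okazaki fragments, stood at 36.5, 33.05 and 36.8 TPM with shLuc and at 45.6, 39.1 and 48.2 TPM with shHDAC1 (0.31 ± 0.10, adjusted p = 0.042). Its groups did not overlap, but the call held in 6 of 15 alternatives. It was lost without shLuc replicate 1, 2 or 3 (adjusted p = 0.0841, 0.122 and 0.0637), without shHDAC1 replicate 1 or 3 (0.118 and 0.133), with median centring (0.129), quantile normalization (0.0847), no filter (0.0984) and protein-coding transcripts only (0.0605). FEN1, the flap nuclease that acts just before LIG1, had overlapping groups at 212 ± 3.64 TPM and 206 ± 6.20 TPM (SD, n = 3).

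Nucleotide supply, listed together with UNG for uracil removal, was represented by 5 genes, with 2 called lower. The median log2 fold change was 0.02, the value of UNG itself. Both called genes encode ribonucleotide reductase, the enzyme that makes deoxyribonucleotides. RRM2, its small and cell cycle-regulated subunit, stood at 389, 373 and 392 TPM with shLuc and at 336, 292 and 294 TPM with shHDAC1 (-0.33 ± 0.07, adjusted p = 0.0073). RRM1, the large subunit, stood at 72.3, 77.5 and 77.3 TPM and then at 66.5, 61.0 and 60.7 TPM (-0.27 ± 0.07, adjusted p = 0.023). The RRM2 call was lost with protein-coding transcripts only (-0.07, adjusted p = 0.28). Neither gene had overlapping groups, and the ratio of RRM2 to RRM1 was 5.09 ± 0.28 with shLuc and 4.90 ± 0.15 with shHDAC1, within the spread. The RRM1 call was lost when shLuc replicate 2 (adjusted p = 0.0644) or 3 (0.0682) or shHDAC1 replicate 2 (0.0517) or 3 (0.0754) was left out. TYMS, thymidylate synthase, gave 248, 260.3 and 238 TPM and then 278, 273 and 251 TPM, and was not called (0.10 ± 0.06, adjusted p = 0.26), nor were TK1 and UNG. With protein-coding transcripts only, TYMS was called higher (0.19, adjusted p = 0.028).

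Chromatin assembly factor 1 places new histones behind the fork, and 2 of its subunits were among the genes. CHAF1A, the large subunit, stood at 53.3, 57.55 and 50.5 TPM with shLuc and at 76.4, 65.1 and 60.1 TPM with shHDAC1 (0.31 ± 0.10, adjusted p = 0.044). The lowest shHDAC1 library lay just above the highest shLuc library, and this was the weakest call of the set. It was lost without shLuc replicate 1, 2 or 3 (adjusted p = 0.111, 0.0537 and 0.121), without shHDAC1 replicate 1 or 2 (0.139 and 0.061), with median centring (0.112), quantile normalization (0.065), no filter (0.121) and protein-coding transcripts only (0.291). CHAF1B, the lowest gene of the 48, gave 8.09, 8.01 and 7.10 TPM and then 8.82, 7.75 and 8.31 TPM (0.09 ± 0.11, adjusted p = 0.60), with a sign that turned under both other scalings.

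The G1/S regulators held the largest decrease, with 2 of 4 called lower and a median log2 fold change of -0.23. CCNE2, cyclin E2, a partner of CDK2 at S phase entry (ENSG00000175305), stood at 16.4, 19.1 and 17.7 TPM with shLuc and at 10.6, 8.75 and 6.65 TPM with shHDAC1. The shHDAC1 mean was 49.0% of the control mean and no library of the groups overlapped (-0.97 ± 0.15, adjusted p = 0.0018). CCNE1, its paralogue with the same role, gave 9.80, 6.65 and 8.88 TPM and then 10.1, 12.3 and 9.001 TPM, with groups that overlapped (0.29 ± 0.16, adjusted p = 0.22). In the controls CCNE2 was the more abundant cyclin E in every library. With shHDAC1 the ratio of CCNE1 to CCNE2 was 0.951, 1.40 and 1.35, against 0.598, 0.349 and 0.501 with shLuc.

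E2F2, an activator E2F (ENSG00000007968, chr1:23506430-23531220), stood at 53.1, 44.0 and 50.4 TPM with shLuc and at 33.6, 28.0 and 31.9 TPM with shHDAC1. That left 63.4% of the control mean, with every shHDAC1 library below every shLuc library (-0.64 ± 0.10, adjusted p = 0.0018). E2F1, the other activator E2F among the genes, gave 27.3, 26.9 and 29.3 TPM and then 32.2, 30.9 and 32.4 TPM. Its groups did not overlap, but it missed the threshold (0.19 ± 0.08, adjusted p = 0.11). The ratio of E2F1 to E2F2 was 0.514, 0.611 and 0.581 with shLuc and 0.958, 1.11 and 1.01 with shHDAC1. The fold changes of E2F1, GMNN and the MCM genes other than MCM3 and MCM6 are given because they are partners of called genes, a choice made after the values were seen.

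**Figure D4:**
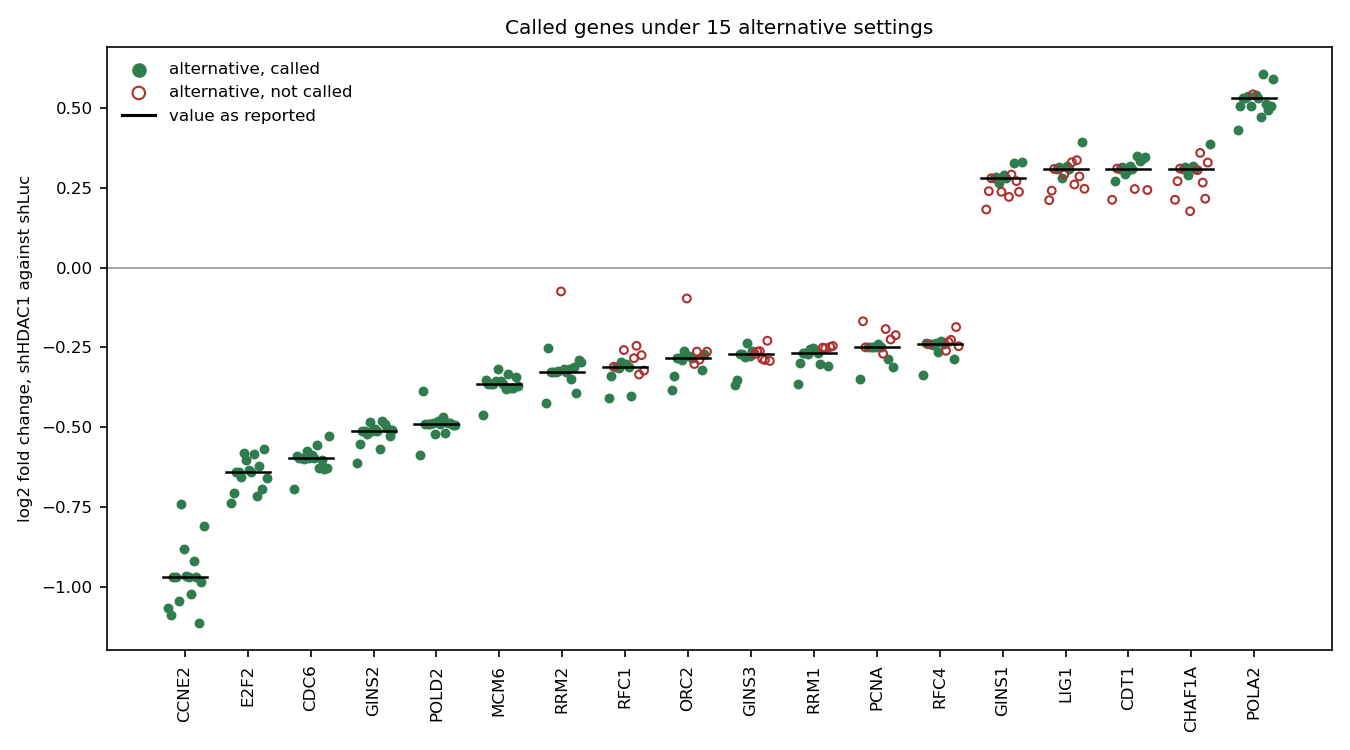
Log2 fold change (vertical axis) of the 18 called genes under each of 15 alternatives, with filled points where the gene was called, open points where it was not, and a black line at the value as reported. CCNE2, E2F2, CDC6, GINS2, POLD2 and MCM6 have only filled points, while LIG1 and CHAF1A have 9 open points each.

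The deposited values are per transcript, which allowed the called genes to be followed within the gene. The 48 genes had 410 listed transcripts, of which 203 passed the filter. Among all 39716 transcripts tested, 3.33% were called, 1.51% lower and 1.83% higher. Of the 203, 6 were called lower and 2 higher. In all 18 called genes the most abundant transcript, by the mean over all libraries, had the sign of the gene. That transcript is part of the gene sum, so its sign is no independent check, and most of the 18 were not called. For CDC6 the most abundant transcript was ENST00000209728, at 50.2, 51.9 and 50.1 TPM and then 37.7, 36.1 and 36.4 TPM (-0.46 ± 0.06, adjusted p = 0.023). For POLD2 it was ENST00000452185, at 215, 208 and 234 TPM and then 141, 148 and 146 TPM (-0.59 ± 0.06, adjusted p = 0.012). For E2F2 it was ENST00000361729, which held 85.6% of the gene's TPM and gave 41.0, 41.5 and 42.8 TPM and then 29.8, 24.8 and 27.1 TPM (-0.60 ± 0.09, adjusted p = 0.028). All 3 are annotated as protein-coding, and in none did the groups overlap. In GINS2 the most abundant transcript, ENST00000596233, was not called (-0.32 ± 0.26, adjusted p = 0.59). A less abundant coding transcript of GINS2, ENST00000253462, was called (-0.45 ± 0.08, adjusted p = 0.044). Without any 1 library, 0 to 2 transcripts of the 48 genes were called in all.

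The transcripts of RRM2 did not share a direction. Its most abundant transcript by the mean over all libraries, ENST00000474701, gave 134, 122 and 135 TPM with shLuc and 96.0, 94.0 and 97.5 TPM with shHDAC1 (-0.44 ± 0.06, adjusted p = 0.025). The second, ENST00000615152, also annotated as coding, gave 95.3, 111 and 80.2 TPM and then 117, 139 and 117 TPM, so its shHDAC1 libraries were higher (0.39 ± 0.14, adjusted p = 0.22, not called). In every shHDAC1 library it was more abundant than ENST00000474701. ENST00000485717, annotated as a retained intron, gave 77.4, 72.5 and 55.8 TPM and then 48.5, 25.4 and 22.1 TPM (-1.15 ± 0.31, adjusted p = 0.12, not called). Summed over protein-coding transcripts only, RRM2 stood at -0.07 on the log2 scale (adjusted p = 0.28), which ended its call. How the reads of 1 gene were divided among its transcripts is not given in the sources used here.

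The POLA2 call also ended with that sum, as did those of ORC2, GINS1, RFC1, LIG1 and CHAF1A given above. Only 34.1% of its TPM lay in protein-coding transcripts, the lowest share of the 48, whose median was 87.7%, and its most abundant transcript, ENST00000527618, is annotated as a retained intron. That transcript gave 16.5, 15.7 and 18.6 TPM and then 19.8, 23.5 and 26.2 TPM (0.43 ± 0.13, adjusted p = 0.17, not called). The protein-coding sum had a log2 fold change of 0.54, close to that of the gene, with an adjusted p of 0.16. In PRIM2, which was not called as a gene, the main coding transcript ENST00000615550 rose from 13.3, 14.8 and 13.5 TPM to 21.1, 20.1 and 19.8 TPM (0.52 ± 0.09, adjusted p = 0.044). RFC2 had a nonsense-mediated decay transcript, ENST00000491206, at 2.89, 3.75 and 10.2 TPM with shLuc and under 0.36 TPM in each shHDAC1 library (adjusted p = 0.048). Only its shLuc values carried it past the filter. In CHAF1A a non-coding transcript, ENST00000587580, was listed at 0 in 2 shLuc libraries and at 2.55, 9.89 and 5.38 TPM with shHDAC1 (adjusted p = 0.043). Only its shHDAC1 values carried it past the filter.

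Exons of 12 of the 48 genes overlap those of another gene at 1 TPM or more, and 4 of the 12 were called, beside 18 of all 48. Whether counting used the strand is not stated, so reads of such pairs may not be separable. CCNE2 shares up to 1628 bases with INTS8, a subunit of the Integrator complex on the opposite strand. INTS8 stood at 70.4, 70.3 and 63.3 TPM and then at 89.4, 84.6 and 87.5 TPM (0.36 ± 0.07, adjusted p = 0.0062), so the pair moved in opposite directions. GINS2 and GSE1 overlap by 7 bases, CHAF1A and UBXN6 by 20, and RFC4 and EIF4A2 by 21.

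Outside the 48, a list of 83 further replication and G1/S genes was examined, and all 83 were tested. Of these, 7 were called lower and 12 higher, with a median log2 fold change of 0.06, so their shares (8.43% lower and 14.5% higher) lay near those of all genes. The balance of this list turned with the scaling, to 14 lower and 5 higher with median centring and 11 and 8 with quantile normalization. The lowest p among those called lower belonged to UHRF1, which recruits the maintenance methyltransferase to replicated DNA. It stood at 35.8, 35.2 and 38.0 TPM with shLuc and at 20.5, 18.8 and 19.1 TPM with shHDAC1 (-0.87 ± 0.08, adjusted p = 1.2e-04). DUT, the dUTPase that keeps uracil out of DNA, fell from 886 ± 43.2 to 667 ± 17.1 TPM (-0.41 ± 0.05). DBF4, the activating subunit of the CDC7 kinase that fires origins, fell from 87.1 ± 5.42 to 56.9 ± 4.31 TPM (-0.60 ± 0.08). CCNA2, cyclin A2, fell from 108 ± 6.42 to 82.0 ± 3.58 TPM, and USP1, which removes ubiquitin from PCNA, from 93.0 ± 9.72 to 66.2 ± 4.596 TPM. The groups of each of these 5 genes did not overlap.

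Among those called higher was SAMHD1, an enzyme that breaks down deoxyribonucleotides, at 34.1, 38.7 and 36.2 TPM with shLuc and 70.9, 66.5 and 69.9 TPM with shHDAC1. Every shHDAC1 library was above every shLuc library (0.91 ± 0.08, adjusted p = 5.3e-05). RRM1 and RRM2, which encode the enzyme that makes deoxyribonucleotides, had values below 0, with the losses of call given above. E2F7, a repressor E2F that is itself an E2F target, stood at 2.47, 3.28 and 2.24 TPM with shLuc and 10.8, 9.19 and 7.22 TPM with shHDAC1. It had the largest increase of the list (1.45 ± 0.17, adjusted p = 3.9e-04), in contrast to the activator E2F2. TIPIN, a fork protection factor, rose from 78.1 ± 2.04 to 113 ± 5.02 TPM, and RPA2, a subunit of the single-strand binding protein, from 80.8 ± 2.71 to 101 ± 3.58 TPM. IMPDH2, which makes guanine nucleotides, rose from 319 ± 1.39 to 388 ± 9.48 TPM. These 10 genes kept their call in every alternative in which they were tested.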

How the data were processed

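RNA from 3 shLuc and 3 shHDAC1 cultures of RPMI 8226 had been made into libraries by a NEBNext Ultra RNA protocol, per the labels. The authors deposited the TPM of each Ensembl transcript, 1 table per library, per the file headers. STAR, DESeq and hg19 stand in the submitters' processing notes without version or role; which tool computed TPM is not given in the sources used here. As a share, TPM of a gene is lowered by a rise of others, and it keeps no depth.

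Transcripts were matched to GENCODE 29 without version numbers (159239 of 173259, 91.9%, holding 96.8% to 97.3% of TPM) and summed per gene. Genes that reached 1 TPM in 3 or more libraries were tested with limma 3.58.1 in R 4.3.3, with a variance trend, on log2(TPM + 1), with p-values adjusted by Benjamini-Hochberg across the tested genes, and called at an adjusted p below 0.05. Fold changes are on that scale, which understates the change of low genes. Transcripts were tested the same way. A p-value here reflects the spread among libraries of a group; the labels do not say whether the triplicates were independent cultures beyond the transduction. The script was tested on simulated data.

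The genes and lists were chosen with earlier results of these data known. Values per library are given for each called gene, for the uncalled gene of each step with the largest change, and for up to 5 genes per direction of the further list with the smallest p. For each called gene the most abundant transcript was examined, and for the others any transcript that was called. The alternatives left out each library in turn, set the pseudocount to 0.1 or 5, dropped the filter or asked for a mean of 5 TPM, centred libraries on their median, quantile normalized them, added the replicate number as a block, took protein-coding transcripts only, or rescaled without histone, immunoglobulin and mitochondrial genes. Running them on the transcript test was chosen after seeing the data. Promoters are RefSeq's on GRCh38.p14 and gene positions GENCODE's on GRCh38; no position was converted. Python 3.11.15 was used.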

Additional observations from a re-analysis of the deposited data

How the results depend on the processing

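Of the 48 replication genes, 13 were lower and 5 higher as reported. Higher calls were 1 with median centring, 2 with quantile normalization, 1 with no filter and 3 with protein-coding transcripts only, and 1 to 4 with a library left out; lower calls were 7 to 11 with a library left out. In the further list of 83 genes, with 7 lower and 12 higher, lower calls were 14 with median centring and 11 with quantile normalization, and higher calls 5 with median centring, 7 with no filter, 8 with quantile normalization and 7 to 12 with a library left out. Over all genes, 1219 were lower and 2007 higher. Lower calls were 1828 with median centring and 867 to 1076 with a library left out. Higher calls were 1336 with median centring, 1303 without shLuc replicate 1 and 1295 without shHDAC1 replicate 1. Signs turned for CHAF1B with median centring (-0.0075) and quantile normalization (-0.0584). With a library left out, MCM4 ran from -0.1048 to 0.0305 and MCM5 from -0.0874 to 0.0132. The cause was not tested.

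With the replicate number as a block, 12 of the 48 genes were lower and 6 higher, with GINS3 lost (adjusted p = 0.0545) and RFC3 gained. Deviations of same-numbered libraries correlated at -0.103, 0.182 and 0.034, and those of differently numbered libraries at -0.165 to 0.146. These values do not settle whether equal numbers mark paired libraries. Under the block 0 transcripts of the 48 genes were called. Depth is unknown, so how far it limits low genes such as CHAF1B and CCNE1 cannot be stated.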

Other observations

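A sequence of 7 letters in annotated 3' UTRs, GACAAAC, had marked genes that were lower with shHDAC1 in an earlier look at these libraries. Among 10995 genes searched, 8.69% held it. Of the 48 replication genes, 1 held it, CCNE2, in a transcript (ENST00000524224) that is not its most abundant. It was absent from the searched 3' UTRs of the other 12 genes called lower, CDC6, MCM6, GINS2, POLD2 and E2F2 among them. The letters came from these same libraries, and with 8.69% of all genes holding them, no conclusion is drawn from so few genes.

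TYMS overlaps ENOSF1 by 719 bases on the opposite strand. ENOSF1 fell with shHDAC1 (-0.54, adjusted p = 0.0039), while TYMS was not called.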
